A study of Drosophila melanogaster with 2 samples.

Results

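Ladybird early (Lbe), a homeodomain transcription factor, was mapped in Drosophila melanogaster embryos by chromatin immunoprecipitation and sequencing (ChIP-seq), and the peaks described here are those that lie at divergent protein-coding promoters, where a pair of genes starts back to back on opposite strands. A peak was counted when its summit lay within 500 bp of the transcription start of a plus-strand protein-coding gene and also within 500 bp of the start of another, minus-strand protein-coding gene. Of 4753 peaks on the 6 chromosome arms, 801 (16.9%, 95% Wilson interval 15.8 to 17.9%) met this rule. The other peaks comprised 1670 at promoters of a single protein-coding gene, 44 at starts of several genes on 1 strand and 2238 with no protein-coding start within 500 bp. The chromatin came from whole embryos aged 0 to 24 h, males and females pooled, of 1 transgenic line that expresses Lbe with a C-terminal GFP tag, and the tag was precipitated with an anti-GFP antibody. The series has 1 group of 2 biological replicates and no other condition. Peaks passed an irreproducible discovery rate (IDR) threshold in a list that the authors made from both replicates. The control named for peak calling was not analysed here, and the lists hold no read counts, so the depth is unknown.

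Divergent gene pairs are common in the compact fly genome and share a short stretch of DNA from which transcription leaves in both directions. Many of their genes serve functions that every cell needs, and promoters of this kind are known to be bound by boundary and architectural proteins such as BEAF-32, Chromator and Cp190, and by the activators DREF, which reads the DNA replication-related element (DRE), and M1BP, which reads Motif 1. Lbe belongs to the NK homeobox cluster and is known for specifying subsets of muscle and heart precursors. Homeodomains read short words with a TAAT core. A ChIP signal over whole embryos is an average, so the share of cells with a bound site and the occupancy in each cell cannot be told apart.

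The DNA between the starts of 5 such pairs is given here, since the nearest starts of each lie under 300 bp apart and the DRE or TAATTA words that they hold, in capitals, can be read directly. Each is the plus strand of release 6 (dm6), 5′ to 3′, from RefSeq's genome sequence, running from the base after the start of the left, minus-strand gene to the base before the start of the right, plus-strand gene, without any bases annotated as exon. For Art8/dUTPase this leaves the 75 bases nearest to Art8, because an annotated exon of another transcript follows. Art8 (an arginine methyltransferase) and dUTPase (which degrades dUTP) lie around chr2L:11011087-11011161, with 2 DRE words in capitals. Cdc50 (a flippase subunit) and rngo (a ubiquitin receptor) lie around chrX:16441297-16441432, with 1 DRE word in capitals. SmB (a core spliceosomal protein) and KdelR (a receptor that retains proteins in the endoplasmic reticulum) lie around chr2L:10426628-10426886, with 2 DRE words in capitals that share bases. Brm (the ATPase of the Brahma chromatin remodelling complex) and Arl1 (a Golgi GTPase) lie around chr3L:15982870-15983134, with 2 copies of the homeodomain word TAATTA in capitals. Mkk4 (a kinase of the JNK pathway) and SLIRP2 lie around chr3R:8650797-8651083, with 1 TAATTA in capitals. With the first printed base counted as 1, the summit lay inside the stretch at base 196 in SmB/KdelR, 152 in brm/Arl1 and 153 in Mkk4/SLIRP2. At Art8/dUTPase it lay at base 85, to the right of the 75 printed, and at Cdc50/rngo at base 164, inside rngo.
Art8/dUTPase: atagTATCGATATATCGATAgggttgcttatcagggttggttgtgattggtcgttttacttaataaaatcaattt
Cdc50/rngo: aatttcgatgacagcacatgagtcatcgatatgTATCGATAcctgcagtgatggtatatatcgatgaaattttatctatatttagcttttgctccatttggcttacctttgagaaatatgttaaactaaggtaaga
SmB/KdelR: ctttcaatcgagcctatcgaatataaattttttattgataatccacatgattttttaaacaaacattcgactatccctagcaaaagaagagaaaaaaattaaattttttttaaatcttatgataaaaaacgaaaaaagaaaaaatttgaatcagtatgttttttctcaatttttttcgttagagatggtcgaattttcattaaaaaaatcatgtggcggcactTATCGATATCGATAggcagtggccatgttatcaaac
brm/Arl1: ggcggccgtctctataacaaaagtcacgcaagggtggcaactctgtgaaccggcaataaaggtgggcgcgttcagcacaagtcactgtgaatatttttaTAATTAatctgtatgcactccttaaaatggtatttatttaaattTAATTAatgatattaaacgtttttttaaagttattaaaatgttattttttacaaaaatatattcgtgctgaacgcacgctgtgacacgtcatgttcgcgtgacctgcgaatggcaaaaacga
Mkk4/SLIRP2: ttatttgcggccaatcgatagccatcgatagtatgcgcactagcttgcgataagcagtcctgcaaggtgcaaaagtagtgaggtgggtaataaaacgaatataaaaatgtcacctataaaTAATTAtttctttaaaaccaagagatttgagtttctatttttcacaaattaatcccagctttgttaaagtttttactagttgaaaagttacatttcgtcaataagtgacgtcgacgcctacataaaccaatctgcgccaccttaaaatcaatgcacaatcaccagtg

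The start sites had the arrangement that the name of the class says in nearly all cases. At 782 of the 801 peaks (97.6%) the nearest minus-strand start lay to the left of the nearest plus-strand start, so that the genes ran away from each other without overlap, and at 19 peaks (2.37%) the 5′ ends overlapped. The distance between the starts had a median of 274 bp and quartiles of 174 and 364 bp. It ranged from a 508 bp overlap, written as −508 bp, to 897 bp. The smallest distance without overlap was 2 bp, at dpa/didum (a subunit of the MCM helicase and a myosin), and the largest was at CG13605/Root. The peaks fell on 749 distinct nearest pairs, of which 698 had 1 peak, 50 had 2 and 1, Nmdmc/Mst85C, had more. In 753 peaks the rule took in 2 genes, in 41 peaks it took in 3 and in 7 peaks more than 3. A non-coding RNA gene also started within 500 bp of 14 of the peaks (1.75%).

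Most summits lay between the starts rather than in either gene. The summit was between them at 618 of 801 peaks (77.2%, 74.1 to 79.9%), in the minus-strand gene alone at 93, in the plus-strand gene alone at 87 and inside both overlapping genes at 3. The distance from the summit to the nearer start had a median of 78 bp (quartiles 38 and 117 bp), and that to the farther start had a median of 196 bp (143 and 287 bp). The summit lay within 50 bp of the midpoint of the starts at 322 peaks (40.2%) and within 100 bp at 550 (68.7%). It was nearer to the plus-strand start at 420 peaks and nearer to the minus-strand start at 377. With starts 1 to 150 bp apart, the summit lay between the starts at 66 of 170 peaks (38.8%), at 151 to 300 bp at 252 of 291 (86.6%), at 301 to 500 bp at 247 of 268 (92.2%) and above 500 bp at 53 of 53. The last class was fixed by the rule, because a summit outside starts so far apart is more than 500 bp from 1 of them. In the other classes too, the room outside the starts that meets the rule shrinks as their distance grows. The rise of these shares with distance, and the 77.2% over all peaks, are thus in part set by the rule.

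The summit was upstream of that start at 634 of 801 divergent-promoter peaks (79.2%, 76.2 to 81.8%) and at 1316 of 1670 single-gene promoter peaks (78.8%, 76.8 to 80.7%), so these shares overlapped within counting error. The median position was −68 bp (quartiles −115 and −13 bp) at divergent promoters and −96 bp (−194 and −18 bp) at single-gene promoters. A second start within 500 bp narrows the room at divergent promoters by construction.

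**Figure D1:**
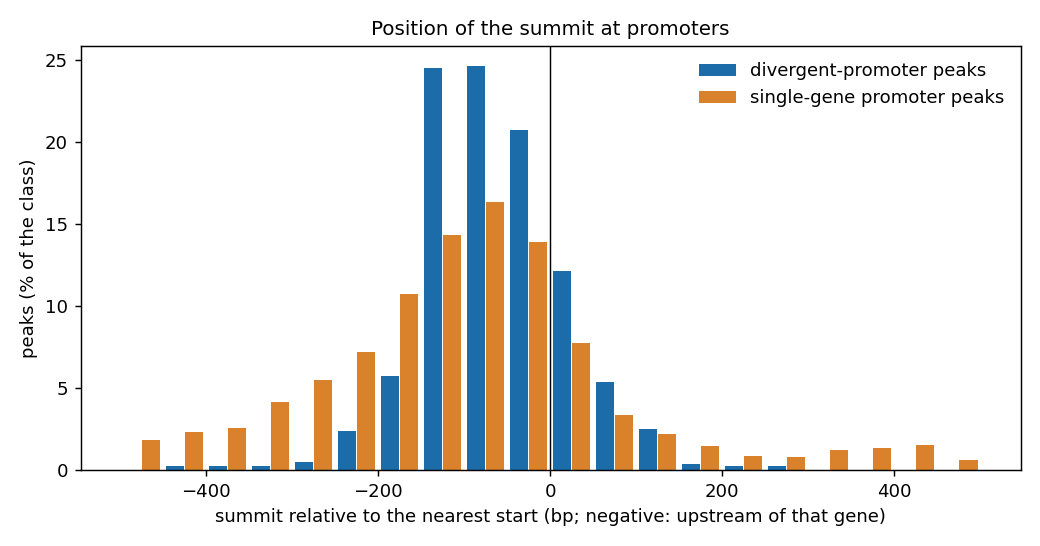
Position of the summit relative to the nearest protein-coding start, in bins of 50 bp, as the percentage of the 801 divergent-promoter peaks and of the 1670 single-gene promoter peaks. Negative values are upstream of that gene, and the divergent-promoter peaks gather around their median of −68 bp while single-gene promoter peaks spread farther upstream.

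Peaks at the edge of the rule are given with their signal, the value that the authors' peak caller gave against the control on a scale that is not stated. Inside it lay l(2)k09848/CG7849, with 495 bp from the summit to the farther start and a signal of 143.4, and GrlHz/CG42694 with 492 bp and 195.6. Just outside were CCHa1-R/eIF3c with 502 bp and 190.6, Ugt302K1/Ugt302E1 with 503 bp and 160.5, and Spn27A/CG34310 with 504 bp and 123.7.

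Divergent gene pairs had a peak more often than single-gene promoters did. The annotation holds 2720 pairs whose starts leave bases within 500 bp of both, and 833 of these (30.6%, 28.9 to 32.4%) had a summit on those bases. Of 7960 genes whose windows of 500 bp around each start overlap no such window of another protein-coding gene, 1061 had a summit within 500 bp. This is 13.3% (12.6 to 14.1%). These genes are a stricter set than those of the single-gene promoter peaks, which are classed by the starts within 500 bp of the summit. The difference between pairs and these genes was 17.3 percentage points (95% Newcombe interval 15.4 to 19.2), where the interval covers counting error and treats regions as independent. With 1 group of 2 replicates no test over samples can be made. With the strongest regions of a replicate taken alone, as many as there are IDR peaks, the shares were 33.1% of pairs and 13.3% of single-gene promoters in replicate 1, and 24% of pairs and 13.1% of single-gene promoters in replicate 2. The difference was thus 19.7 points (17.8 to 21.7) in replicate 1 and 10.9 points (9.15 to 12.7) in replicate 2, and it had the same direction in both. Any region of the pooled list of 29999 peaks and background regions lay at 53.6% of pairs and 37.3% of single-gene promoters.

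A few summits occupied many pairs at once. The locus of mod(mdg4), which encodes a family of BTB-domain chromatin proteins and is known for trans-splicing of transcripts from both strands, is annotated with many separately named units on both strands, and 37 of the 833 pairs lie inside it under only 2 peaks. The stronger, at chr3R:21365286-21365548, had a signal of 349.4, with 227.7 in replicate 1 and no matching region in replicate 2. The weaker, at chr3R:21359766-21360175, had 119.8, with 82.8 in replicate 1 and again none in replicate 2. Without this locus, 796 of 2683 pairs (29.7%, 28 to 31.4%) had a peak. Counted by gene rather than by pair, 1556 of the 5141 genes of divergent pairs (30.3%, 29 to 31.5%) had a summit that meets the rule, beside 2995 of all 13945 protein-coding genes (21.5%) with any summit within 500 bp of a start.

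Summits were also counted per base of DNA. Bases within 500 bp of starts on both strands make up 1.675 Mb, or 1.25% of the arms, and carried 478.3 summits per Mb (exact 95% Poisson interval 445.7 to 512.6). Single-gene promoter bases, 13.35 Mb, carried 125.1 per Mb (119.2 to 131.3), and bases away from protein-coding starts carried 18.9 per Mb. In replicate 1 the density was 514.1 per Mb at divergent and 121.8 per Mb at single-gene promoters, and in replicate 2 it was 392.9 and 131.3 per Mb for the same classes. Divergent-promoter bases lie near a start on either side by the rule, and their mean distance to a start is set by the rule.

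By distance between the starts, the share of pairs with a peak was 31.7% (25.3 to 38.8%) at 1 to 50 bp, 33.9% at 51 to 100 bp, 35.6% at 101 to 150 bp and 26.8% (20.4 to 34.5%) at 151 to 200 bp. It was 46.2% (40 to 52.6%) at 201 to 250 bp, 47.4% (41.8 to 53.2%) at 251 to 300 bp and 48.6% (42.1 to 55.2%) at 301 to 350 bp, then 36.2% at 351 to 400 bp and 33.1% at 401 to 500 bp. The intervals of the classes from 201 to 350 bp did not overlap that of the 151 to 200 bp class, also without the mod(mdg4) locus. Without that locus, the share at 301 to 350 bp was 45.1% (38.5 to 52%) and that at 401 to 500 bp was 28.6%. The step between 151 to 200 bp and 201 to 250 bp was present in both replicates, at 33.6% and 51.7% in replicate 1 and at 20.8% and 41.6% in replicate 2. The 301 to 350 bp class did not stand out in replicate 2, with 52.7% in replicate 1 and 30% in replicate 2. Beyond 500 bp the share fell to 11% at 501 to 700 bp and 2.61% at 701 to 1000 bp, but there the rule itself leaves few bases, a median of 416 and 172 bp per pair. Summits per Mb of bases that meet the rule take this into account. They numbered 328.6 per Mb (235.8 to 445.8) at 151 to 200 bp, 622.5 (514.0 to 747.2) at 201 to 250 bp, 752.8 at 301 to 350 bp, 629.0 at 401 to 500 bp and 293.9 at 501 to 700 bp. In these densities a summit counts once for each pair that it lies under, and the intervals treat such repeats as independent. The mod(mdg4) locus is kept in, which raises the counts at 301 to 350 bp and 401 to 500 bp, and densities without it were not computed. Among 105 pairs with overlapping 5′ ends, 32 (30.5%, 22.5 to 39.8%) had a peak.

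**Figure D2:**
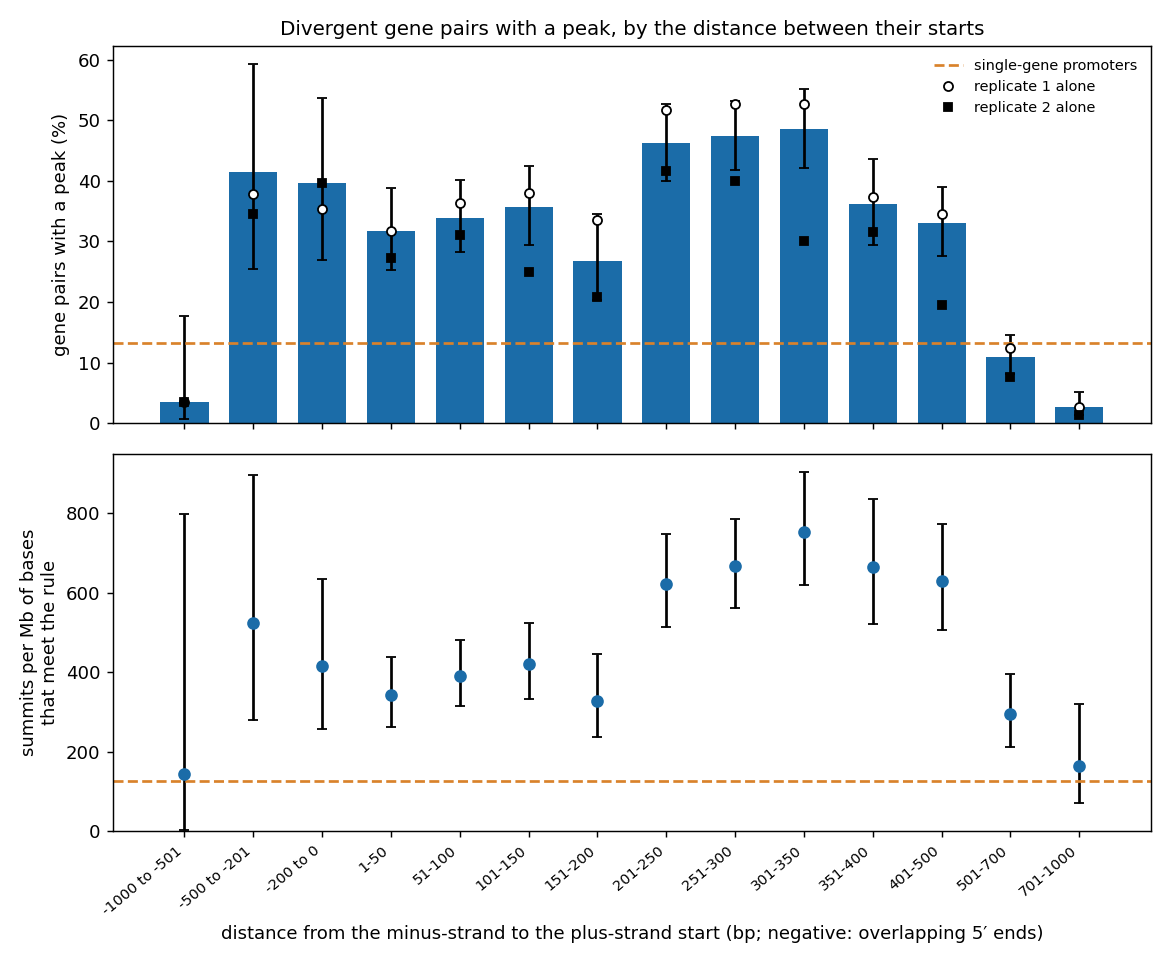
Top, percentage of divergent gene pairs with a peak in each class of distance between the starts (bars, with 95% Wilson intervals), with the values of each replicate alone as points and the 13.3% of single-gene promoters as a dashed line. Bottom, summits per Mb of bases that meet the rule, with exact 95% Poisson intervals and the density at single-gene promoters as a dashed line. A summit counts once for each pair that it lies under, and the mod(mdg4) locus is kept in. The percentages are highest between 201 and 350 bp, and with that locus the densities from 201 to 500 bp all exceed 600 per Mb.

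The share of pairs with a peak was given for each chromosome arm. On 3R, 36.2% of pairs (32.7 to 39.8%) had a peak against 13.3% of single-gene promoters, but this share holds the mod(mdg4) locus, and without it 32.6% (29.2 to 36.3%) had one. On X the shares were 24.4% of pairs (20.5 to 28.8%) and 13.6% of single-gene promoters. The shares were 33% of pairs on 3L, 28.8% on 2L and 28.1% on 2R, against 13.9%, 13.2% and 12.5% of single-gene promoters on those arms. On 3R without the locus and on X, the shares were 37.9% and 22.7% in replicate 1 and 26.4% and 19% in replicate 2. X thus had a lower share of its pairs occupied than 3R in each replicate, while in the IDR list its share of single-gene promoters was 13.6% against 13.3% on 3R. On chromosome 4, 1 of 11 pairs had a peak. The 801 peaks numbered 151 on 2L, 156 on 2R, 174 on 3L, 221 on 3R, 1 on chromosome 4 and 98 on X.

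In the IDR list the median signal was 154.2 (quartiles 122.2 and 216.2) at divergent promoters and 145.6 (116.5 and 201.6) at single-gene promoters, and the values ranged from 99.2 to 1207.2 at divergent promoters. The share among the strongest 2376 of all peaks was 55.1% (51.6 to 58.5%) of divergent-promoter and 48.8% (46.4 to 51.2%) of single-gene promoter peaks, and the share among the strongest 475 was 10.5% in both classes. The replicates gave opposite orders. Among regions that match within 200 bp, the median signal in replicate 1 was 103.2 at divergent and 92.1 at single-gene promoters, while in replicate 2 it was 56.8 at divergent and 63.5 at single-gene promoters. Peaks with starts 151 to 300 bp apart had a median signal of 168.3, against 146.0 with starts 1 to 150 bp apart, 147.2 with starts 301 to 500 bp apart and 149.3 beyond. The replicate lists were called separately on a scale that is not stated, and over all peaks the median signal was 94.9 in replicate 1 and 61.5 in replicate 2, so a signal of one list is not set against that of the other.

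The 20 strongest divergent-promoter peaks had signals of 586.3 to 1207.2, and their genes include those of the mitochondrial ribosomal proteins mRpS23, mRpS10 and mRpL23, of Chromator and of the Brahma ATPase. The peak at mRpS23/CenG1A (a mitochondrial ribosomal protein and an Arf GTPase-activating protein; chr2L:13835281-13835622) had a signal of 1207.2, with 781.0 in replicate 1 and 428.1 in replicate 2. That at Fbw5/CG9147 (an F-box protein and an uncharacterised gene; chr2L:6065933-6066259) had 1193.0, with 798.8 in replicate 1 and 423.1 in replicate 2. These 2 ranked 10 and 11 among all peaks on the arms. Chro/Ssl1 (the interband protein Chromator and a subunit of TFIIH; chr3L:22878714-22879121) had 1086.0, with 738.9 in replicate 1 and 349.1 in replicate 2. CG11309/CG7632 (chr3L:21304386-21304756) had 1029.5, with 702.4 in replicate 1 and 320.8 in replicate 2. The summit of Chro/Ssl1 lay 78 bp inside Chro, while that of CG11309/CG7632 lay between the starts. Pex11ab/CG8320 (a peroxisomal membrane protein; chr2R:15992340-15992679) had 983.8, with 724.0 in replicate 1 and 259.7 in replicate 2. CG8372/CG8360 (chr2L:8212843-8213177) had 896.2, with 555.8 in replicate 1 and 342.1 in replicate 2. Their starts are only 33 and 57 bp apart, and the summit lay in the plus-strand gene at each. Art3/mRpS10 (an arginine methyltransferase and a mitochondrial ribosomal protein; chr3R:15229354-15229701) had 894.5, with 632.3 in replicate 1 and 251.7 in replicate 2. CG13390/CG17294 (chr2L:8376723-8377056) had 861.7, with 611.7 in replicate 1 and 238.1 in replicate 2. Stt3A/bves (a subunit of oligosaccharyltransferase and a Popeye-domain membrane protein; chrX:21054167-21054499) had 845.3, with 483.3 in replicate 1 and 372.5 in replicate 2. This pair was the widest of the strongest 20, with 609 bp between its starts.

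The signals of the next 11 ranged down to 586.3. They were the peaks at Gcn5/ver (a histone acetyltransferase and a telomere-capping protein), Pdrg1/Pal1, mRpL23/CG9004, CG5611/Mtl (a Rac-like GTPase), Lon/PIG-F (a mitochondrial protease and an enzyme of GPI-anchor synthesis), CG1275/Elp5 (a subunit of Elongator), Mkk4/SLIRP2, Mnat9/CG1792, CG13018/CG13016, imd/Dp1 (the adaptor of the Imd immune pathway and a KH-domain protein) and brm/Arl1. Gcn5/ver had 767.9, with 535.0 in replicate 1 and 223.4 in replicate 2. Lon/PIG-F had 705.5, with 491.4 in replicate 1 and 206.8 in replicate 2, and brm/Arl1 had 586.3, with 413.3 in replicate 1 and 164.4 in replicate 2. All 20 stood among the first 147 regions of replicate 1 and the first 291 of replicate 2. The summit was between the starts in 14 of the 20 and inside a gene in 6. None of the 20 held a DRE, a Motif 1 or a GAGAGA word within 100 bp of the summit, 4 held TAATTA, 3 held CGATA and 2 held CAGCTG. Over all 801 divergent-promoter peaks, DRE was at 12.6%, Motif 1 at 6.62% and GAGAGA at 4.49%. TAATTA was at 22.3% of the 801, CGATA at 50.8% and CAGCTG at 17%. Whether the 20 differ from these shares was not tested. The A+T content of the 20 within 100 bp of the summit was 59.7 to 72.6%, with a median of 68.2%. All 20 regions were narrower than 410 bp, the width that 73.9% of the divergent-promoter peaks had.

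**Figure D3:**
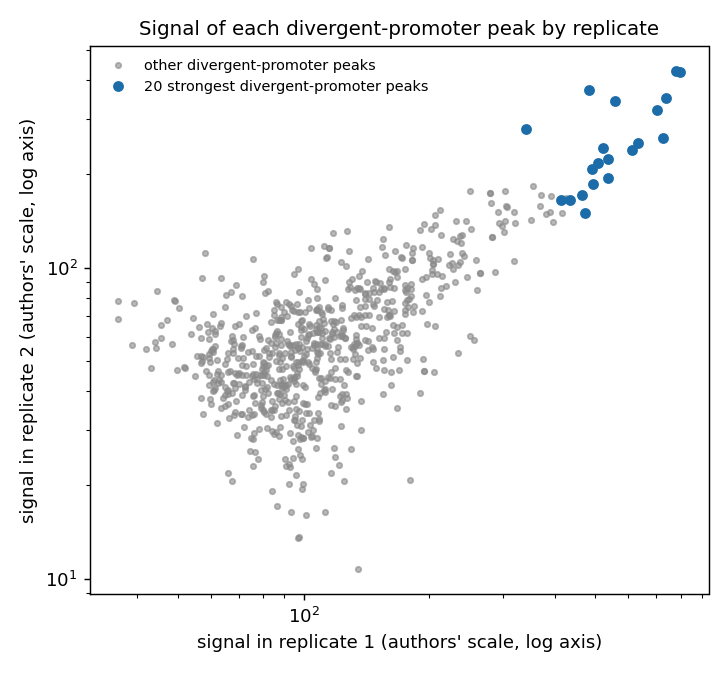
Signal of each divergent-promoter peak in replicate 1 (horizontal, log axis) and replicate 2 (vertical, log axis), for the 749 peaks with a matching region in both lists; the scales of the lists are separate. The 20 strongest peaks (large points) lie toward the upper end of both axes, with signals of 341.6 to 798.8 in replicate 1 and 150.2 to 428.1 in replicate 2.

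Gene groups were described by the share of their members in divergent pairs that had a peak, beside 30.3% of all genes in such pairs. Of 85 cytosolic ribosomal protein genes, 52 are in divergent pairs and 25 of these (48.1%, 35.1 to 61.3%) had a divergent-promoter peak. Of 73 mitochondrial ribosomal protein genes, 58 are in such pairs and 25 (43.1%, 31.2 to 55.9%) had one. The lower limits of both intervals lay above 30.3%, though with 16 lists described this is a count and not a test. A promoter peak of any kind was present at 59 of the 85 cytosolic and 28 of the 73 mitochondrial genes, beside 2995 of all 13945 genes (21.5%). Peaks at cytosolic ribosomal protein genes were thus not particular to divergent promoters. RpL32/CG7943 had a signal of 439.3, with 280.8 in replicate 1 and 161.0 in replicate 2. RpL19/CG3776 had 342.6, with 206.6 in replicate 1 and 136.5 in replicate 2, and RpL34b/CG8132 had 339.3, with 194.3 in replicate 1 and 137.5 in replicate 2. RpS27/Nup37 (the second a nucleoporin) had a pair of overlapping peaks of 333.8 and 163.1. Among the mitochondrial ribosomal genes, mRpL24/betaggt-I had 427.3, with 319.9 in replicate 1 and 104.9 in replicate 2, after mRpS23, mRpS10 and mRpL23 given above.

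Of the 8 tRNA synthetase genes with a peak among 22 in pairs (36.4%), SerRS/CG17260 had the strongest, 360.2, with starts 8 bp apart; AsnRS had 148.6, ThrRS 145.0 and TrpRS 124.3. Of 21 translation initiation factor genes in pairs, 7 (33.3%) had a peak. The strongest was eIF4EHP/CG18428 (a cap-binding repressor of translation) with 515.1, with 367.4 in replicate 1 and 158.1 in replicate 2, and eIF3h/senju followed RpL28/eIF1 with 186.4. Of 44 nuclear genes of the respiratory chain in pairs, 15 (34.1%) had a peak, led by ND-ASHI/Fum1 (a complex I subunit and fumarase) with 369.2, and then by COX7B with 198.9, COX6B with 181.6 and ND-24 with 169.3. Vacuolar ATPase subunits had peaks at 8 of 14 genes in pairs (57.1%, 32.6 to 78.6%), led by Vha100-2/Vti1b with 366.7 and Vha36-1 with 231.1, then Vha16-5 with 201.9 and Vha55 with 188.4. Proteasome genes had peaks at 8 of 26 (30.8%), led by Rpn3 with 272.2, Rpn6 with 269.1, Rpn5 with 225.2 and Rpt5 with 221.1. These shares, from 30.8 to 57.1%, had wide intervals that took in 30.3% in each group except the vacuolar ATPase, whose lower limit was 32.6%.

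Genes of chromatin and transcription were also present. Insulator and architectural protein genes had peaks at 5 of 9 in pairs (55.6%, 26.7 to 81.1%). After Chro, Cp190/CG4338 (Cp190 is a common cofactor of insulators; chr3R:15275219-15275564) had 447.0, with 305.0 in replicate 1 and 158.0 in replicate 2. M1BP/CG8202 (the Motif 1 binding protein) had 225.0, with 136.0 in replicate 1 and 94.0 in replicate 2, and Dref/RpL13 (the DRE-binding factor) had 223.4, with 143.7 in replicate 1 and 82.9 in replicate 2. Genes for the binding proteins of DRE and of Motif 1 were thus themselves at divergent-promoter peaks. Polycomb and Trithorax genes had peaks at 4 of 13 (30.8%), namely brm, E(z)/Cnep1r2 (the histone H3 lysine 27 methyltransferase) with 356.2, Su(z)12/Pfdn6 with 189.1 and Snr1 with 130.5. Mediator and TAF genes had peaks at 10 of 31 (32.3%), led by MED30/Rev1 with 377.3, MED17 with 308.9, MED27 with 303.5 and MED7 with 185.9. Splicing genes had them at 6 of 17 (35.3%), led by snRNP-U1-C/gukh with 285.0, Slu7/Pkc98E with 231.9, U2af50/PIG-Q with 220.7 and SmB with 177.6. Replication genes had them at 6 of 15 (40%), led by dpa with 173.7, Dp with 169.2, RnrS with 150.4 and Mcm2 with 146.1. In these lists the symbols Z4, calypso, SmG and Chif were not found in the annotation, and those genes were not looked at.

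Groups with restricted expression had fewer of their genes in divergent pairs than the 36.9% of all protein-coding genes, with 13.4% of chemosensory receptor, 9.09% of cuticle protein, 5% of muscle identity and 12.5% of mesoderm and heart genes. Of 119 chemosensory receptor genes, 16 are in such pairs and 0 had a peak, which allows a share of up to 18.8% at 3 counts (upper Wilson limit 19.4%). Of 77 cuticle protein genes, 7 are in pairs and 0 had one (upper Wilson limit 35.4%). Of 20 muscle identity factors, the group nearest to the known role of Lbe, only sd is in a divergent pair, with PGRP-LE. Its peak (chrX:15804249-15804351) had a signal of 225.1, with 112.0 in replicate 1 and 117.1 in replicate 2. sd encodes Scalloped, the TEAD-family partner of Vestigial, and the peak ranked 1673 in replicate 1 and 561 in replicate 2. Of 16 mesoderm and heart factors, 2 are in pairs and 0 had a divergent-promoter peak (upper Wilson limit 65.8%). The symbols col, msh and ptx1 of the muscle list, and bagpipe and doc1 of the mesoderm and heart list, were not found in the annotation. Those genes were not looked at, so neither list is complete. The limits of the cuticle protein and the mesoderm and heart groups take in the 30.3% of all genes in pairs. A promoter peak of any kind was present at 0 chemosensory receptor, 1 cuticle protein, 4 muscle identity and 3 mesoderm and heart genes.

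At 7 peaks the genes on both sides were in these groups. RpL28/eIF1 had a pair of overlapping peaks of 273.1 (chr3L:3222921-3223123) and 189.4 (chr3L:3223041-3223450). COX8/VhaM9.7-b also had overlapping peaks, of 130.9 and 101.7. The others were Dref/RpL13 with 223.4, mRpL39/Prosbeta2 with 159.3 and mRpL44/Snr1 with 130.5. mRpL44/Snr1 and the weaker peak of COX8/VhaM9.7-b had no matching region in replicate 2.

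Short words of promoter factors were searched on both strands within 100 bp of each summit, and shares were set beside those at single-gene promoter peaks and in the windows of the same length just upstream of all 13945 genes. The DRE word TATCGATA was present at 101 of 801 divergent-promoter summits (12.6%, 10.5 to 15.1%) and 125 of 1670 single-gene promoter summits (7.49%), a difference of 5.12 points (2.6 to 7.86), and in 7.39% of all promoter windows. That difference was 2.88 points (−0.161 to 6.3) with a start window of 250 bp and 2.72 points (−0.152 to 5.76) with gene 5′ ends alone, intervals that take in 0. CGATA, the word read by BEAF-32, which is also contained in every DRE, was present at 50.8% of divergent-promoter and 35.7% of single-gene promoter summits (difference 15.1 points, 11 to 19.2), against 38.4% of all promoter windows. At least 2 copies of CGATA were present at 228 divergent-promoter summits (28.5%) and 297 single-gene promoter summits (17.8%). The Motif 1 core GGTCACAC was present at 53 divergent-promoter summits (6.62%) and 70 single-gene promoter summits (4.19%), a difference of 2.43 points (0.564 to 4.54), against 3.74% of all promoter windows. The Motif 1 difference was 0.45 points (−1.4 to 2.49) in replicate 1 alone and 3.43 points (1.44 to 5.8) in replicate 2 alone, so it was not seen beyond counting error in replicate 1. DRE or Motif 1 was present at 150 divergent-promoter peaks (18.7%), and both at 4. The E-box CAGCTG was present at 17% of divergent-promoter and 12.9% of single-gene promoter summits (difference 4.04 points, 1.07 to 7.19).

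Of the 10 words, GAGAGA was the least frequent at divergent promoters relative to single-gene promoters; it is read by the GAGA factor. It was present at 36 divergent-promoter summits (4.49%, 3.26 to 6.16%) and 298 single-gene promoter summits (17.8%, 16.1 to 19.8%), a difference of −13.3 points (−15.6 to −10.9), and in 9.29% of all promoter windows. The difference was −8.04 points in replicate 1 and −20.9 points in replicate 2, where 26.5% of single-gene promoter summits held the word.

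Words rich in A and T were also commoner at divergent promoters. The homeodomain word TAATTA was present at 179 divergent-promoter summits (22.3%, 19.6 to 25.4%) and 220 single-gene promoter summits (13.2%), a difference of 9.17 points (5.94 to 12.6), against 15.5% of all promoter windows. The difference was 9.17 points in replicate 1 and 9.34 points in replicate 2. A related word, TAACTA, searched as the ladybird type, was present at 15.9% of divergent-promoter and 9.76% of single-gene promoter summits (difference 6.09 points, 3.28 to 9.1). The TATA word TATAAA was present at 42.4% of divergent-promoter and 31.1% of single-gene promoter summits (difference 11.4 points, 7.3 to 15.4). The TATAAA difference was 6.4 points in replicate 1 alone and 14.1 points in replicate 2 alone. For AGATAA, read by GATA factors, the interval of the difference ran from −1.54 to 4.15 points, and for CAGGTA, read by Zelda, from −1.63 to 1.55 points. None of the 10 words was present at 83 divergent-promoter peaks (10.4%). A+T content moved with these words, with a median of 66.2% within 100 bp of divergent-promoter summits and 62.7% at single-gene promoter summits, and its part in the shares was not tested.

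**Figure D4:**
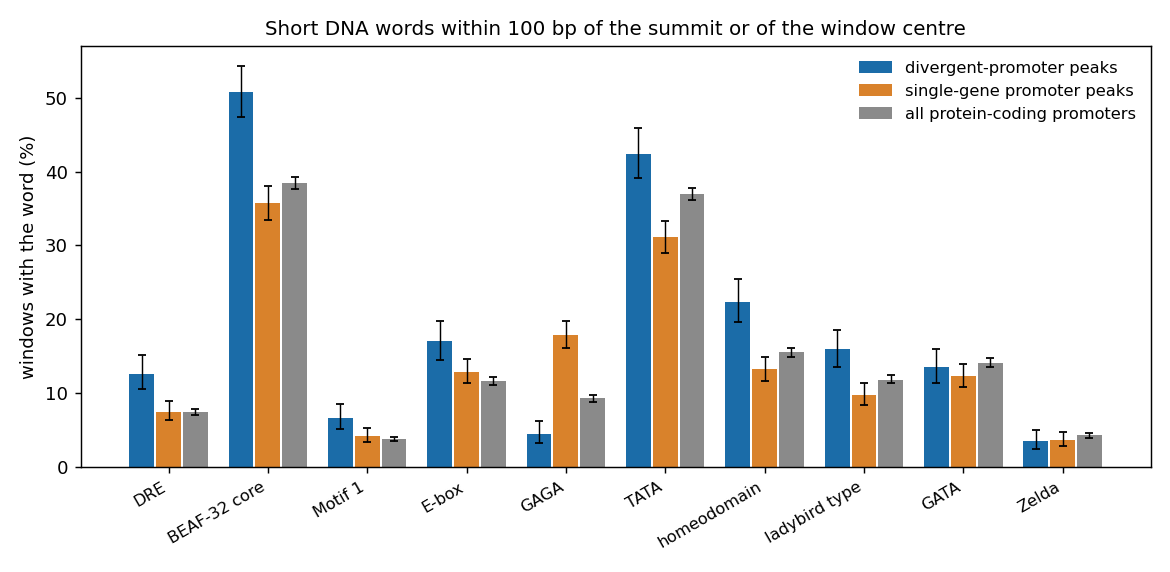
Percentage of windows of 100 bp on either side of the summit that hold each word, for divergent-promoter peaks and single-gene promoter peaks, and of windows of the same length just upstream of all 13945 protein-coding genes, with 95% Wilson intervals. The GAGA word is at 4.49% of divergent-promoter and 17.8% of single-gene promoter summits, and the homeodomain word is at 22.3% and 13.2% of the same classes.

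The words lay close to the starts. The 110 DRE words within 100 bp of divergent-promoter summits lay between the starts in 93 cases (84.5%), with a median of 49 bp to the summit and 23.5 bp to the nearer start. The 53 Motif 1 words lay between the starts in 35 cases (66%), a median of 22 bp from the nearer start, and 39 (73.6%, 60.4 to 83.6%) read on the strand of the nearer gene. At least 2 DRE words were present at 8 peaks, among them those of the Art8/dUTPase, Cdc50/rngo and SmB/KdelR stretches printed above. At Cdc50/rngo the DRE word in capitals lies more than 100 bp from the summit and is not among those counted. The 2 words counted for that peak lie outside the printed stretch. Their signals were moderate. Among the strongest were Art8/dUTPase with 265.4, Cdc50/rngo with 188.5, Klp67A/CG4452 (a mitotic kinesin) with 142.9 and SmB/KdelR with 115.6, where a second peak of the same pair reached 177.6 without a DRE within 100 bp. The median signal was 147.2 with a DRE and 155.1 without, 124.8 with Motif 1 and 156.6 without, and 160.5 with TAATTA and 151.1 without. Of peaks with Motif 1, 22 of 53 (41.5%, 29.3 to 54.9%) reached the strongest regions in each replicate, against 480 of 748 (64.2%, 60.7 to 67.5%) of peaks without it.

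For a comparison that needs no summit, pairs with and without a peak were read at the midpoint of their starts. DRE was present at 11.4% of pairs with a peak and 7.15% of pairs without (difference 4.25 points, 1.9 to 6.82), and CGATA at 46.1% with and 38.3% without (difference 7.84 points, 3.81 to 11.9). Among pairs 1 to 500 bp apart, DRE was at 12.3% with and 10.2% without a peak (difference 2.16 points, −0.677 to 5.15), and CGATA was at 47.3% with and 46.4% without (difference 0.976 points, −3.56 to 5.52). Motif 1 was at 4.2% of all pairs with and 5.67% without a peak (difference −1.47 points, −3.1 to 0.383), and among pairs 1 to 500 bp apart at 4.51% with and 8.76% without (difference −4.25 points, −6.39 to −1.98; −4.02 points without the mod(mdg4) locus). TAATTA was at 24% of all pairs with and 20.6% without a peak, a difference of 3.39 points (0.0389 to 6.89). That difference was 2.75 points (−0.629 to 6.29) without the mod(mdg4) locus and −0.0377 points (−3.54 to 3.7) without replicate 1, so its direction did not hold in replicate 2 alone. Among pairs 1 to 500 bp apart TAATTA was at 24% with and 19.3% without a peak (difference 4.74 points, 1.01 to 8.56; 4.03 points, 0.269 to 7.9, without the locus). Among the same pairs, GAGAGA was at 4.24% with and 5.67% without a peak (difference −1.43 points, −3.33 to 0.626), an interval that takes in 0. TAACTA was at 16% of these pairs with and 15.4% without a peak (difference 0.618 points, −2.64 to 4.01). TATAAA was at 40.3% with and 39.2% without (difference 1.12 points, −3.32 to 5.59). Over all pairs the difference was 0.157 points (−2.69 to 3.19) for TAACTA and 0.891 points (−3.06 to 4.9) for TATAAA. All of these TAACTA and TATAAA intervals take in 0.

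Base composition had a sharp profile at these promoters. A+T rose toward the midpoint of pairs 1 to 500 bp apart, to 68.3% ± 12.2 with a peak (SD over pairs, n = 754) and 65.2% ± 12.4 without (n = 1199), in steps of 50 bp, and at 600 bp to the right it was 50.4% ± 10.2 with and 50.9% ± 11.9 without a peak. At divergent-promoter summits it was 67.5% ± 11.7 (n = 801) and at single-gene promoter summits 62% ± 12.2 (n = 1670). At 600 bp to the right of the summit it was 50.7% ± 10.3 at divergent promoters and 56.9% ± 12.5 at single-gene promoters. The local peak of A+T was thus higher over lower flanks at divergent promoters, where both flanks are gene bodies by the rule. The strongest regions of the replicates differed in composition, with a median A+T of 66.2% at divergent and 64.2% at single-gene promoters in replicate 1 and of 64.7% and 57.7% for the same classes in replicate 2.

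**Figure D5:**
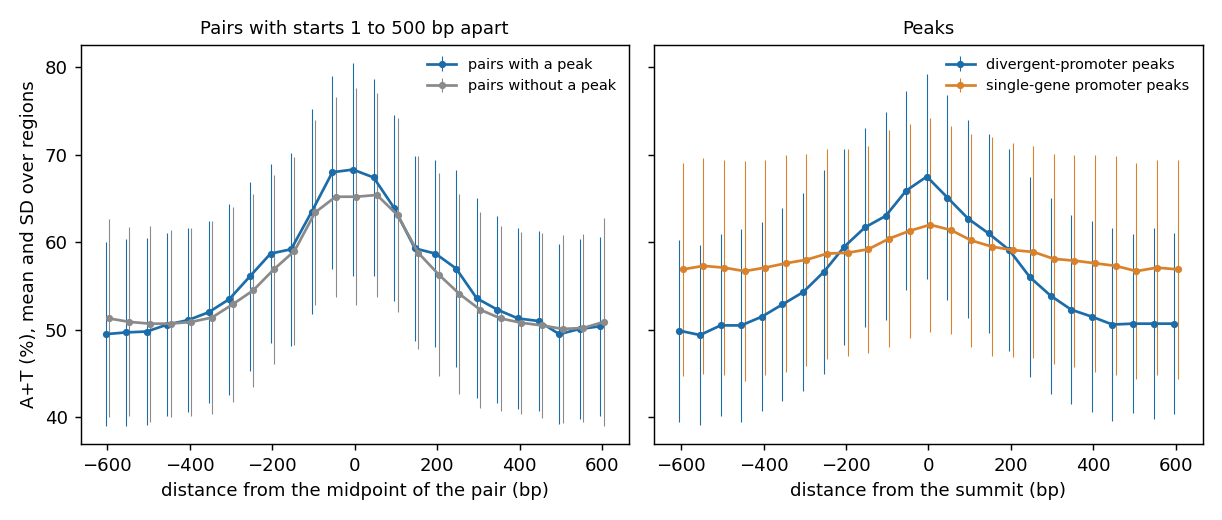
Mean A+T content (%) with the SD over regions in steps of 50 bp. Left, around the midpoint of divergent pairs with starts 1 to 500 bp apart, for 754 pairs with a peak and 1199 without; right, around the summits of 801 divergent-promoter peaks and 1670 single-gene promoter peaks, where the centre is at 67.5% and 62% and the flanks of divergent promoters lie near 50.7%.

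Of the 801 divergent-promoter peaks, 502 (62.7%, 59.3 to 66%) had a summit within 200 bp among the strongest regions of both replicates, beside 59.2% of all peaks and 58.8% of single-gene promoter peaks. The difference from single-gene promoter peaks was 3.87 points (−0.259 to 7.92), an interval that takes in 0. The peaks found in 1 replicate alone were unevenly divided. Of the divergent-promoter peaks, 214 (26.7%, 23.8 to 29.9%) were among the strongest of replicate 1 only and 64 (7.99%, 6.31 to 10.1%) of replicate 2 only, while of single-gene promoter peaks 22.4% (20.5 to 24.5%) were in replicate 1 only and 16.4% (14.7 to 18.3%) in replicate 2 only. The intervals of the shares in replicate 2 only did not overlap. When the rule was applied to the strongest regions of each replicate, it found 861 divergent-promoter regions in replicate 1 and 658 in replicate 2. Among 749 peaks with a matching region in both full lists, the signals had a Spearman correlation of 0.56 across peaks, given as a description since both come from the same peak list, and the rank was better in replicate 1 at 557 peaks and in replicate 2 at 191. No peak lacked a region in both lists, 44 lacked one in replicate 2 and 8 in replicate 1. The strongest without one in replicate 2 was Gk1/CG13876 (a glycerol kinase), with a signal of 372.3 and 240.9 in replicate 1.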

How the data were processed

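The authors deposited region lists for each of 2 biological replicates (1 group), for both pooled and past the IDR threshold, in dm3 and dm6; the dm3 lists were not used. The aligner and the peak caller were not given in the sources used here. The signal of a region is the authors' value against a control, on an unstated scale. The deposited −log10 q-value was not used for ranking. Fragments of 200 to 800 bp were sized, per the labels. Read depth is unknown.

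Of 4782 IDR peaks, 29 outside the 6 chromosome arms were left out. Starts are the 5′ ends of all protein-coding transcripts (19607 starts, 13945 genes; Ensembl release 115, BDGP6.54). The builds were checked: 99.8% of annotated start codons read ATG in the RefSeq release 6 genome, and 0 regions ran past a chromosome end. Replicates were compared by the strongest 4782 regions of each list, with summits within 200 bp counted as shared. Shares have 95% Wilson, differences Newcombe and densities exact Poisson intervals, which cover counting error only. Words were matched exactly within 100 bp. Python 3.11.15, pandas 2.3.3 and SciPy 1.17.1 were used, and the counting was tested on simulated regions.

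Members, words, gene lists and tests were chosen with earlier results of these data known. Named items are the 20 strongest peaks, up to 4 per gene list by signal, peaks with both genes in lists, the 5 strongest with 2 or more DRE words and the 3 nearest either side of 500 bp; a few that this rule names are not reported here. Single items given beyond these were chosen after their values were seen. Alternatives were other start windows, gene 5′ ends alone, the strongest 2376 peaks, other sharing and word distances and each replicate alone. Added after the data were seen were pairs 1 to 500 bp apart, genes counted once, the mod(mdg4) locus left out, and the GAGAGA and paired TAATTA results.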

Additional observations from a re-analysis of the deposited data

How the results depend on the processing

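No paired analysis was possible because the series has 1 group. Over 9 results, 74 alternatives were run, of which 55 were rated the same. For differences of shares this means that direction and side were kept, the side being whether the interval excludes 0. The number of peaks had to stay within a set ratio of its main value. For the median signal difference, direction had to hold and the change had to stay below a set limit. The occupancy difference between pairs and single-gene promoters kept direction and side under every alternative run (10.6 to 25.3 points, and 10.9 to 19.7 with 1 replicate alone). The number of divergent-promoter peaks was 528 with a 250 bp window and 441 in the strongest 2376 peaks, and 658 to 861 with 1 replicate alone. The difference of median signal, 8.62, was 17.2 with a 250 bp window, −1.2 in the strongest 2376 peaks and −0.814 to 9.25 with 1 replicate alone, negative without replicate 1. The difference in shares found in both replicates, 3.87 points, was 8.66 with a 250 bp and 4.48 with a 1000 bp window and 5.68 with gene 5′ ends alone, intervals then excluding 0, and −0.607 in the strongest 2376 peaks. The DRE difference between divergent and single-gene promoter peaks was 2.88 points with a 250 bp window and 2.72 with gene 5′ ends alone, intervals taking in 0, and 3.78 to 7.76 with 1 replicate alone. The DRE difference between pairs with and without a peak was 1.49 points in the strongest 2376 peaks and 2.16 among pairs 1 to 500 bp apart (2.8 without the mod(mdg4) locus), intervals taking in 0, and 5.48 to 5.82 with 1 replicate alone. The TAATTA difference between pairs with and without a peak, 3.39 points over all pairs, was 3.22 with a 250 bp window, 2.53 with words within 50 bp, 3.32 within 200 bp and 2.75 without the mod(mdg4) locus, intervals taking in 0, and −0.0377 to 4.71 with 1 replicate alone, negative without replicate 1. The TAATTA difference between divergent and single-gene promoter peaks (9.17 to 9.34 points with 1 replicate alone) and the GAGAGA difference (−20.9 to −8.04) kept direction and side throughout. The cause of these changes was not tested. With 2 replicates, no control and no read counts, spread between embryos and the depth behind each signal cannot be given.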
